A study of Mus musculus with 4 samples.

Results

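Killer-cell lectin-like receptors are described here as 9 genes (Klrk1, Klrd1, Klrc1, Klrc2, Klre1, Klrb1c, Klrg1, Klra7 and Klra8) of the 31053 in the files, followed through T cells of the mouse meninges and choroid plexus. The genes were listed by name, with earlier results of these data known. CD4 and CD8 T cells had been sorted from female C57BL/6 mice aged 10 weeks (young) or 18 months (aged), with 5 mice pooled for each tissue and age, and read by 5 prime single-cell RNA sequencing. This gave 4 libraries, 1 for each tissue at each age, with no genetic change or treatment in any of them. No condition has a replicate library, so values are given with intervals for counting error only, and the effect of age cannot be told apart from a difference between libraries. A pooled library also does not show how the mice within it differ.

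The killer-cell lectin-like receptors are transmembrane proteins of natural killer cells that some T cells also make. Klrd1 (CD94) pairs with Klrc1 (NKG2A) to form an inhibitory receptor, or with Klrc2 (NKG2C) to form an activating one, and both pairs read the non-classical MHC molecule Qa-1, encoded by H2-T23. Klrk1 (NKG2D) binds stress-induced ligands and signals through the adaptor Hcst (DAP10). Klrg1 is an inhibitory receptor for cadherins that marks T cells late in their differentiation, and Klrb1c is the NK1.1 antigen. Klra7 and Klra8 belong to the Ly49 receptors, many of which bind MHC class I.

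A cell counted as a T cell with at least 1 unique molecular identifier (UMI, a tag for 1 captured RNA molecule) of Cd3d, Cd3e or Cd3g. T cells with a Cd4 UMI were called CD4, those with a Cd8a or Cd8b1 UMI CD8, and those with none of these neither. The libraries held 605 to 1408 T cells. Where 4 values follow each other below, those of the young libraries come first and those of the aged ones second, each time with the meninges before the choroid plexus. In that order there were 254, 160, 281 and 473 CD8 T cells, 254, 160, 362 and 230 CD4 T cells, and 481, 269, 735 and 358 cells with neither. Median UMIs per CD8 T cell were 3645, 3437, 2811 and 3121, so the aged libraries were read less deeply per cell. Cells with neither had medians of 2079 to 2993 UMIs, below those of CD8 T cells in each library, and a CD4 or CD8 T cell whose coreceptor RNA was missed falls among them. Between any pair of libraries, 0 to 1 T-cell barcodes were shared. Levels are given in CPM, the UMIs of a gene scaled to a common total of all UMIs of the summed cells, with exact Poisson intervals at 95%, and shares of cells have Clopper-Pearson intervals at 95%. Fewer cells that make an RNA and less of it per cell cannot be told apart in a summed level.

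All 9 genes lie on mouse chromosome 6 (GRCm38, GENCODE vM21). Klrb1c, Klre1, Klrd1, Klrk1, Klrc2, Klrc1, Klra8 and Klra7 follow each other in that order between positions 128778485 and 130233322, a span of 1.46 megabases, and Klrg1 stands 6.50 megabases away. Klrd1 spans chr6:129591782-129598775 on the plus strand, Klrk1 chr6:129610323-129623864 on the minus strand and Klrc1 chr6:129666015-129678973 on the minus strand.

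Some of these genes are close copies, which limits what a count of 1 of them means. The coding sequences of Klrc1 and Klrc2 were identical at 83.0% of 714 aligned bases, with 1 identical run of 100 bases, and those of Klra7 and Klra8 at 77.9% of 798. The 120 coding bases in which each pair differs most are shown to make plain where a read can separate them, with the bases that differ in capitals. Klrc1 and Klrc2 differ at 53 of these bases (coding bases 243 to 362 of Klrc1 and 225 to 344 of Klrc2), and Klra7 and Klra8 at 31 (coding bases 11 to 130 of both).
Klrc1: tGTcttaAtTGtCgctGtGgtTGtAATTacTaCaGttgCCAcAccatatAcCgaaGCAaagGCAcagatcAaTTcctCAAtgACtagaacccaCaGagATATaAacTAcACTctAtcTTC
Klrc2: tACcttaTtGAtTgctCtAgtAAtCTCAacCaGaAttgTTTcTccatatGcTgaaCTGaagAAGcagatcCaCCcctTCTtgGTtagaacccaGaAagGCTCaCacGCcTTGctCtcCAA
Klra7: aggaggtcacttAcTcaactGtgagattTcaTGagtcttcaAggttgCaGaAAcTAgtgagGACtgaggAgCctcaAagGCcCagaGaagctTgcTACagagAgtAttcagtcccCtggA
Klra8: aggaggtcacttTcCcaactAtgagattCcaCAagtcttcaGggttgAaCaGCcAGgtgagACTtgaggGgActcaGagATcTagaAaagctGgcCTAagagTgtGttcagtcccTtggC
Because the assay reads the 5 prime end, the first 300 bases of each transcript matter most. There, no 50-base window of Klrk1, Klrd1, Klrc1, Klre1, Klrg1 or Klra7 occurred in another Klr gene, whereas 15.1% of those of Klrb1c, 58.1% of those of Klrc2 and 74.9% of those of Klra8 did. Counts of Klrc2 and Klra8 are therefore uncertain, and both were low throughout.

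RefSeq windows (GRCm38.p6) before a transcription start were at hand for 7 of the 9 genes. The 250 bases before the start are shown for Klrk1 and Klrc1, the genes with the widest differences between aged and young CD8 T cells of the meninges (Klrk1) and of the choroid plexus (Klrc1), and for Klre1, their neighbour detected mainly in the same class. Capitals mark matches to a Runx core (TGTGGT or its complement ACCACA).
Klrk1, chr6:129623865-129624114, minus strand: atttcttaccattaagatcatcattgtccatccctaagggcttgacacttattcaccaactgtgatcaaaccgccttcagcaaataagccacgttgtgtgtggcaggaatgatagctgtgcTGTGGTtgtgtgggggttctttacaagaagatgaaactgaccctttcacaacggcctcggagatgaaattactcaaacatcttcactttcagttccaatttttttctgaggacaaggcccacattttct
Klrc1, chr6:129678974-129679223, minus strand: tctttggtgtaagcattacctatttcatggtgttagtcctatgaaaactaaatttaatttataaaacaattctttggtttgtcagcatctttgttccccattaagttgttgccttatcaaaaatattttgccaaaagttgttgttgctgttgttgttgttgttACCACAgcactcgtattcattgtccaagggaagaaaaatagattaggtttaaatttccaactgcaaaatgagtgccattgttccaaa
Klre1, chr6:129577963-129578212, plus strand: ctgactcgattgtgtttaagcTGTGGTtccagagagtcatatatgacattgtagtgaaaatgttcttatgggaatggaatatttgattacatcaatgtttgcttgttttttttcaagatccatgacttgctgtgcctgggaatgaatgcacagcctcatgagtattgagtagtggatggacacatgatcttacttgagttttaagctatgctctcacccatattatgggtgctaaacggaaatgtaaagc
A Runx core stood in at least 1 window of 5 of the 7 genes (Klrb1c, Klre1, Klrk1, Klrc2 and Klrc1) and in 14.0% of all 32851 windows of this length. The first is a count of genes and the second a share of windows, and Klre1, Klrc2, Klra7 and Klra8 had 2 windows each. The second window of Klre1, not shown, held no Runx core. A T-box core (GGTGTGA or TCACACC) stood in none of the 7 and in 3.33% of all windows. A TCF/LEF core (CTTTGA or TCAAAG) stood in those of Klra7 and in 13.8% of all. These are matches of letters and not binding sites. The windows of Klre1, of Klrc2 and of Klra8 overlap, and those of Klra7 do not.

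CD8 T cells held most of the UMIs of 7 of the 9 genes. Over the 4 libraries, CD8 cells were 28.4% of T cells but held 76.2% of 1066 Klrd1 UMIs, 70.6% of 551 Klrk1 UMIs, 72.6% of 296 Klrc1 UMIs, 75.6% of 197 Klre1 UMIs, 82.2% of 73 Klra7 UMIs, 51.6% of 31 Klrc2 UMIs and all 7 Klra8 UMIs. Klrb1c and Klrg1 departed from this. Of 116 Klrb1c UMIs, 64.7% were in cells with neither, a share set by the meninges. There, cells with neither held 56 of 68 Klrb1c UMIs in the young and 15 of 20 in the aged library, whereas in the choroid plexus CD8 cells held 13 of 16 in the young and 10 of 12 in the aged one. Of those 13 and 10 UMIs, 4 and 5 were in CD8 cells without a UMI of Ncr1, Tyrobp or Fcer1g, markers of natural killer cells. Over the 4 libraries Klrg1 was spread over neither (42.0% of 300 UMIs), CD8 (32.0%) and CD4 (22.3%).

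**Figure D1:**
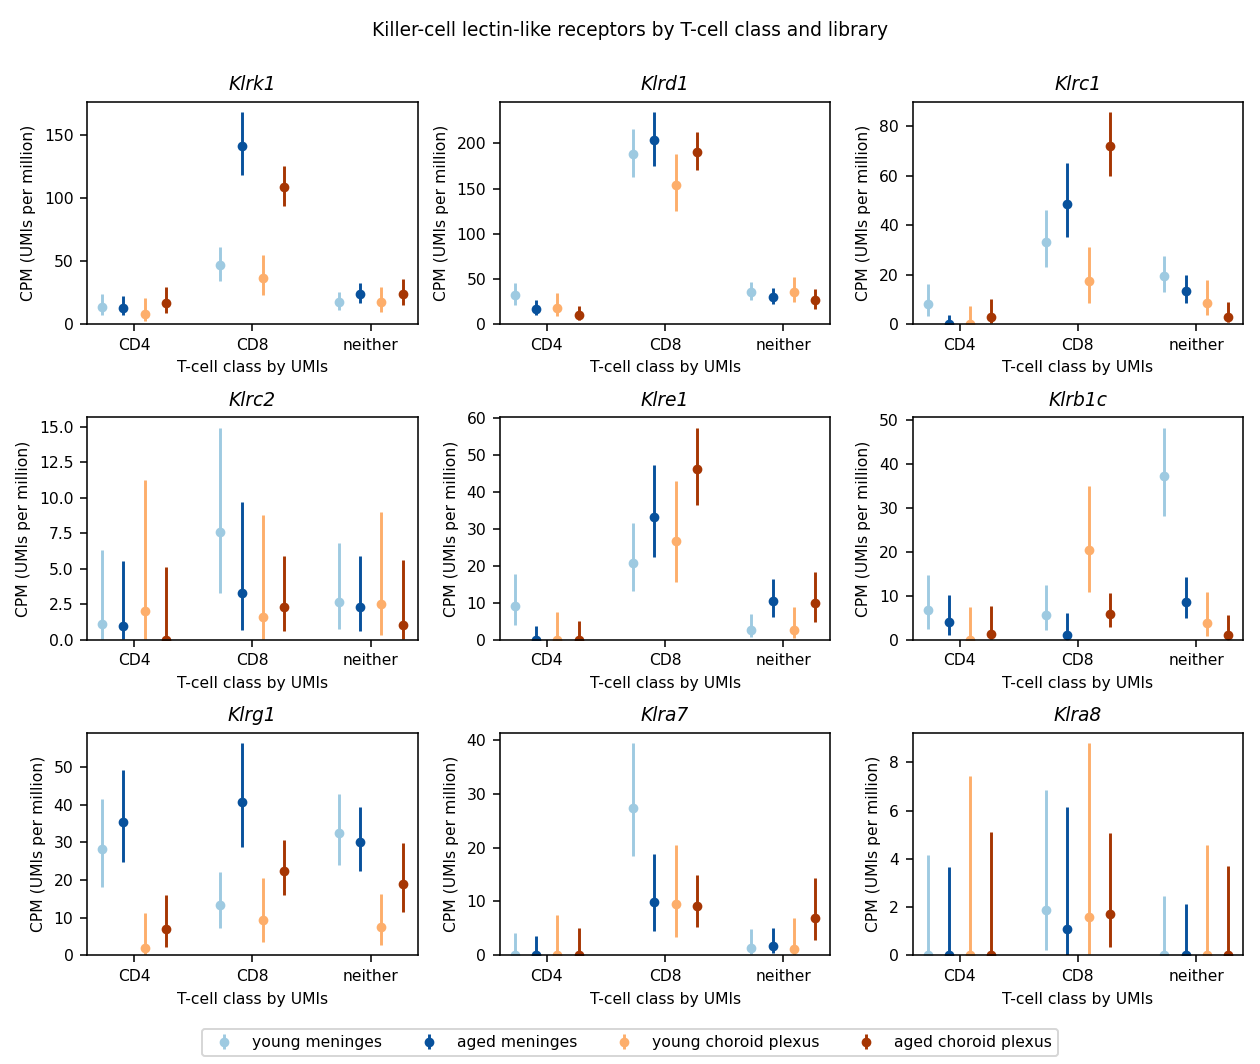
Level of each of the 9 genes in CPM (vertical axis, from 0, its own scale per gene) in CD4, CD8 and neither T cells (horizontal axis) of the 4 libraries, with exact Poisson intervals at 95% as bars. Klrd1 stands at 154 to 203 CPM in CD8 cells of all 4 libraries, Klrk1 in CD8 cells is higher in both aged libraries than in both young ones, and Klrb1c peaks in the young meningeal cells with neither.

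To name differences of size, a gene had to hold at least 20 UMIs in the higher pool and differ by at least 1 in log2(CPM + 10), a scale on which the change of a low gene is understated. Compared with CD4 T cells of the same library, CD8 T cells were higher by this rule for Klrk1, Klrd1, Klrc1 and Klra7 in the young meninges, where 1.04% of 5557 genes were. Klra7 and Klra8 had no UMI in any CD4 cell. In the young choroid plexus Klrk1 and Klrd1, the only 2 members with enough UMIs, were higher, against 2.1% of 3760 genes. Klre1, Klrb1c and Klrc1 held 17, 13 and 11 UMIs in CD8 cells there and 0 in CD4 cells, too few for the rule. Klrk1, Klrd1, Klrc1 and Klre1 were higher in the aged meninges (1.09% of 5804 genes) and in the aged choroid plexus (1.35% of 7040 genes). No member was lower in CD8 than in CD4 by the rule in any of the 4 libraries, where 1.76%, 1.44%, 3.43% and 2% of genes were, so that little can be read from it. Klrd1 showed the widest gap each time, with log2 ratios from 2.25 (1.79 to 2.72) in the young meninges to 3.35 (2.72 to 3.87) in the aged choroid plexus. Klrg1 was not past the rule in any library and its log2 ratio ran from -0.72 in the young meninges to 0.94 in the aged choroid plexus.

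Klrk1, the activating NKG2D receptor, was higher in aged than in young CD8 T cells of both tissues. In the meninges it stood at 46.4 CPM (34.3 to 61.3) in the young library and 141 CPM (118 to 168) in the aged one. In the choroid plexus it stood at 36.3 CPM (22.98 to 54.4) in the young library and 109 CPM (93.9 to 126) in the aged one. Both aged intervals lie above both young ones. The log2 ratio of aged over young was 1.43 (1.01 to 1.84) in the meninges and 1.36 (0.85 to 1.89) in the choroid plexus. After each cell was thinned to 1000 UMIs, so that depth was the same, a Klrk1 UMI was found in 3.94% and 2.55% of young CD8 cells and in 13.1% and 10.1% of aged ones, with the meninges given first. Without thinning these shares were 7.87%, 8.13%, 24.9% and 24.3%.

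Klrd1, the CD94 chain, was the most abundant member in CD8 T cells and differed little between the ages. Its level was 188 CPM (163 to 216) in the young meninges and 203 CPM (175 to 235) in the aged meninges. In the choroid plexus it was 154 CPM (125 to 188) in the young library and 191 CPM (171 to 212) in the aged one. The intervals overlap within both tissues, and the log2 ratios were 0.11 (-0.18 to 0.39) and 0.29 (-0.02 to 0.60), short of the rule. These intervals leave room for a difference below it. At equal depth a Klrd1 UMI was found in 20.1%, 13.4%, 19.3% and 18.2% of the CD8 cells of the 4 libraries.

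Klrc1, the inhibitory NKG2A chain, was higher with age in CD8 cells of the choroid plexus, at 17.3 CPM (8.65 to 31.0) in the young library and 72.0 CPM (59.95 to 85.8) in the aged one, and its log2 ratio was 1.59 (0.96 to 2.18). The young value rests on 11 UMIs in 5 cells. In the meninges the levels were 33.1 CPM (23.1 to 46.1) and 48.6 CPM (35.3 to 65.3), with a log2 ratio of 0.44 (-0.09 to 0.97). The difference between the tissues was not tested. Klrc2, the NKG2C chain, held 8, 1, 3 and 4 UMIs in CD8 cells of the 4 libraries, too few to compare.

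Klrg1 was higher with age in CD8 cells of the meninges, 13.3 CPM (7.24 to 22.2) against 40.9 CPM (28.8 to 56.4), with a log2 ratio of 1.13 (0.52 to 1.71). The choroid plexus held it at 9.46 CPM (3.47 to 20.6) and 22.5 CPM (16.0 to 30.7), and its log2 ratio of 0.74 (0.01 to 1.36) was short of the rule. Klre1, a receptor of the same gene cluster that pairs with other chains of the family, was at 20.8 and 33.1 CPM in young and aged meninges and at 26.8 and 46.1 CPM in young and aged choroid plexus, also short of the rule in both. Klra7, which encodes Ly49G, held 29 UMIs in 7 CD8 cells of the young meninges, 13 of them in a single cell, and 6 UMIs in the young choroid plexus, 9 in the aged meninges and 16 in the aged choroid plexus. Its log2 ratio in the meninges was -0.91 (-1.52 to -0.24). Of the young meningeal UMIs, 10 were in 3 of the 8 CD8 cells that also held a UMI of Ncr1, Tyrobp or Fcer1g, markers of natural killer cells. Without them the young level was 18.7 CPM on 19 UMIs and the log2 ratio -0.51 (-1.16 to 0.18), with too few UMIs for the rule.

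By count, 2 of the 9 members were past the rule upward in CD8 cells of the meninges (Klrk1 and Klrg1; 6 had enough UMIs), against 3.2% of 5527 genes. In the choroid plexus 2 were (Klrk1 and Klrc1; 5 had enough UMIs), against 2.46% of 6993 genes. None was past it downward, as 1.83% of genes were for the meninges and 0.872% for the choroid plexus, shares at which no call among so few members is no result about them. The median log2 ratio of all 9 members, those with few UMIs included, was 0.11 for the meninges and 0.29 for the choroid plexus. Over the members with enough UMIs it was 0.46 (6 genes) and 0.74 (5 genes), where the median over all genes with enough UMIs was 0.04 and 0.12. In CD4 T cells no member was past the rule in either direction, against 4.23% of genes upward and 1.86% downward for the meninges and 7.27% and 1.92% for the choroid plexus, and only Klrd1 and Klrg1 in the meninges had enough UMIs to be read. Klrg1 stood there at 28.2 CPM in the young library, where 1 cell held 10 of the 25 UMIs, and at 35.6 CPM in the aged one. Among cells with neither, no member was past it in the choroid plexus (4.62% of genes were upward and 1.83% downward), and Klrb1c was in the meninges.

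**Figure D2:**
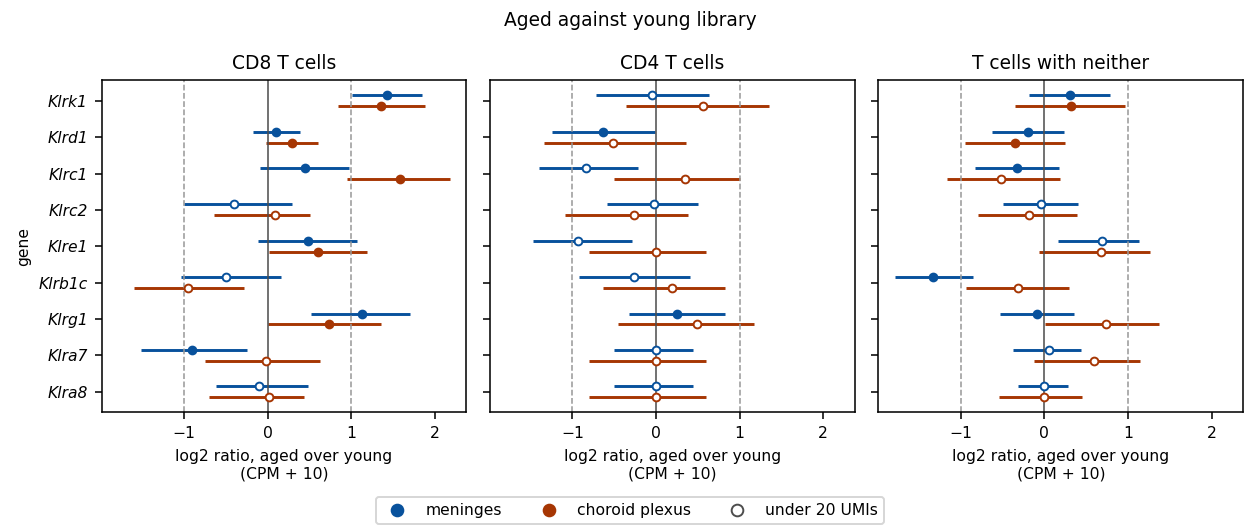
Log2 ratio of aged over young in CPM + 10 (horizontal axis) for each gene (vertical axis) in CD8, CD4 and neither T cells, with intervals at 95% for counting error. Open points have under 20 UMIs in both libraries and dashed lines mark ratios of -1 and 1. Klrk1 in CD8 cells of both tissues, Klrg1 in meningeal and Klrc1 in choroid plexus CD8 cells lie past 1, and Klrb1c in meningeal cells with neither lies past -1.

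Klrb1c, the NK1.1 antigen found on natural killer T cells, was highest in the young meningeal cells with neither coreceptor. It held 56 UMIs in 26 cells there, 37.2 CPM (28.1 to 48.3), against 15 UMIs in 10 cells of the aged meninges, 8.66 CPM (4.85 to 14.3). The young and the aged choroid plexus held 3 and 1 UMIs. The log2 ratio of aged over young in the meninges was -1.34 (-1.79 to -0.85), and 1.42% of 7406 genes were lower by the rule. None of these UMIs was in a cell with a UMI of Ccr7, a receptor of naive T cells that home to lymph nodes. Zbtb16, the transcription factor of natural killer T cells, held 12 UMIs in the young and 5 in the aged meningeal cells with neither. Of the 56 young meningeal UMIs, 8 were in cells with a Zbtb16 UMI, 13 in cells with a gamma-delta receptor UMI, and 53 in cells without Ncr1, Tyrobp or Fcer1g. In the young libraries, Klrb1c and Klrg1 were both lower by the rule in the choroid plexus than in the meninges among cells with neither, with log2 ratios of -1.78 (-2.25 to -1.10) and -1.29 (-1.84 to -0.62), against 1.62% of 6560 genes. The Klrg1 levels rest on 49 UMIs in 16 meningeal cells, where 1 cell held 10 UMIs, and on 6 UMIs in 4 choroid plexus cells. At equal depth a Klrg1 UMI was found in 1.27% (0.47 to 2.7) of the meningeal and 1.12% (0.23 to 3.2) of the choroid plexus cells.

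The CD8 T cells of the libraries differed in their share of Ccr7-positive cells. A Ccr7 UMI was found in 164 of 254 young meningeal, 76 of 160 young choroid plexus, 25 of 281 aged meningeal and 45 of 473 aged choroid plexus CD8 cells. Klrd1 intervals of Ccr7-positive and Ccr7-negative cells overlapped, whereas over the 4 libraries Klrk1 and Klrg1 were lower in the Ccr7-positive cells. Over the 4 libraries Klrd1 stood at 172 CPM (151 to 196) in Ccr7-positive and 194 CPM (179 to 211) in Ccr7-negative CD8 cells. Klrk1 stood at 33.4 CPM (24.4 to 44.7) and 115 CPM (103 to 128) in the same order, and Klrg1 at 3.71 CPM (1.21 to 8.66) and 30.5 CPM (24.5 to 37.4). These pooled values mix the ages, since most Ccr7-positive cells were young. The 5 Klrg1 UMIs of Ccr7-positive cells were all in the aged choroid plexus. Klrg1 stood there at 21.9 CPM in Ccr7-positive and 22.6 CPM in Ccr7-negative cells. Within each aged library the Klrk1 intervals of both kinds of cell overlapped, as they did in the young choroid plexus, and they were apart in the young meninges (14.5 CPM, 6.95 to 26.7, against 106 CPM, 75.5 to 145). CD4 T cells with a Ccr7 UMI, which should lack these receptors, gave a background of 13.8 CPM for Klrd1, 4.92 CPM for Klrk1, 1.97 CPM for Klrg1 and no UMI of Klrc1. At equal depth 18.1% of the Ccr7-positive CD8 cells held a Klrd1 UMI and 1.64% of the Ccr7-positive CD4 cells did. Median UMIs per cell were 3973 and 3075 before thinning.

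Within the Ccr7-negative CD8 cells the ages stood closer together for Klrk1. Its level was 106 CPM (75.5 to 145) in young and 147 CPM (122 to 177) in aged meninges, a log2 ratio of 0.44 (-0.05 to 0.95). In the choroid plexus it was 55.5 CPM (32.9 to 87.8) in young and 113 CPM (97.1 to 132) in aged cells, a log2 ratio of 0.91 (0.30 to 1.56). Neither was past the rule, and neither was Klrg1 in the meninges, at 0.25 (-0.49 to 0.997). Klrc1 in the choroid plexus was, at 1.37 (0.55 to 2.17). The share of all genes past the rule was not computed for the Ccr7-negative cells. In Ccr7-positive CD8 cells Klrk1 was at 14.5 and 16.1 CPM in young meninges and choroid plexus and at 101 (52.4 to 177) and 78.8 CPM (46.7 to 125) in the aged libraries, on 12 and 18 UMIs in the aged. Those aged Ccr7-positive cells had medians of 4856 and 4950 UMIs against 2704 and 3015 in the aged Ccr7-negative ones. The part of these differences in the whole CD8 class was not tested.

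**Figure D3:**
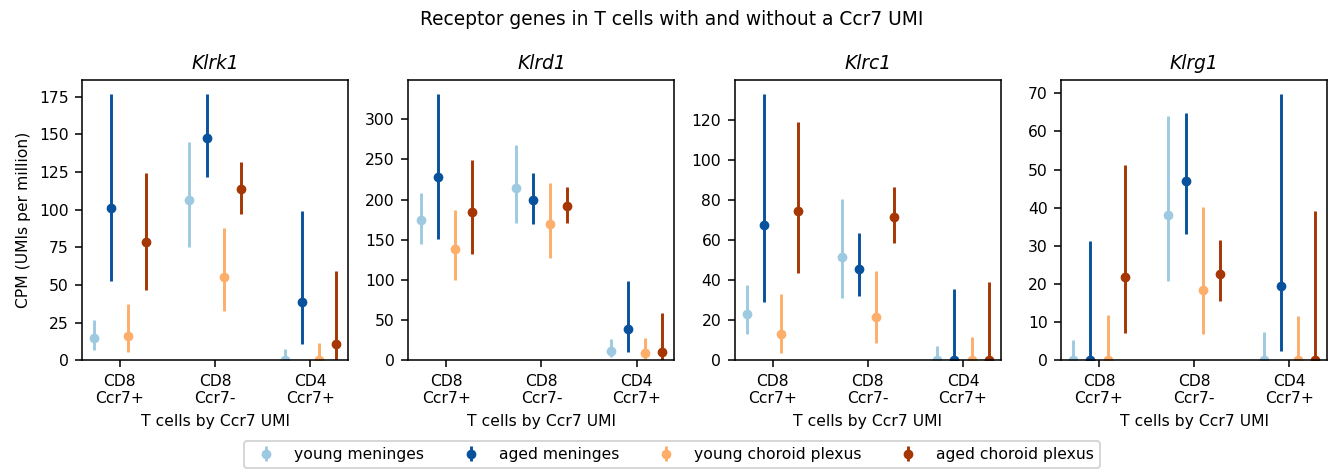
Level in CPM (vertical axis, from 0) of Klrk1, Klrd1, Klrc1 and Klrg1 in CD8 T cells with (Ccr7+) or without (Ccr7-) a Ccr7 UMI and in Ccr7+ CD4 T cells (horizontal axis), per library, with exact Poisson intervals at 95%. Klrd1 is high in both groups of CD8 cells in all 4 libraries and low in Ccr7+ CD4 cells, while Klrk1 is low in young Ccr7+ CD8 cells.

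Other features of the CD8 class differed between the ages too. UMIs of the gamma-delta list (Trdc, Tcrg-C1, Tcrg-C2, Tcrg-C4, Trdv4) were found in 3.94% and 5% of young and in 18.9% and 32.8% of aged CD8 cells of the meninges and choroid plexus, at 18.9 to 23.7 summed CPM in the young and 91.7 to 182 in the aged. Most were of Tcrg-C2 and Tcrg-C4 in the young choroid plexus and in both aged libraries. In the young meninges Trdc held 10 of the 25 UMIs, in 2 cells, and Tcrg-C4 held 8. The defining gene Trdc was found in 1 to 2 cells a library and Trdv4 in none. Without the cells that held any of them, the log2 ratio of Klrk1 was 1.52 (1.06 to 1.97) in the meninges and 1.33 (0.78 to 1.89) in the choroid plexus, and that of Klrc1 in the choroid plexus 1.57 (0.90 to 2.20). Without cells holding Ncr1, Tyrobp or Fcer1g, found in 0.712% to 4.38% of CD8 cells at 3.31 to 140 summed CPM, the Klrk1 ratios were 1.51 and 1.35. Zbtb16 was at 0 in CD8 cells of 3 libraries and at 2 UMIs in the aged choroid plexus. Haemoglobin UMIs were found in 5.51% and 23.5% of young and aged meningeal CD8 cells, and in at most 0.634% in the choroid plexus. Their part in the results was not tested.

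The share of CD8 T cells with a UMI of at least 1 of the 9 genes was 26.8% (21.4 to 32.7) in the young and 31.4% (25.9 to 37.2) in the aged meninges at 1000 UMIs per cell, a difference of 4.62 percentage points (-3.15 to 12.3). In the choroid plexus it was 19.1% (13.3 to 26.1) in the young and 32.4% (28.2 to 36.9) in the aged library, a difference of 13.3 points (5.31 to 20.2). In the meninges the interval of the difference includes 0. Without thinning, 48.0%, 39.4%, 52.7% and 53.3% of the CD8 cells of the 4 libraries were positive. CD4 cells at equal depth gave 1.26% to 5.62% and cells with neither 5.99% to 6.38%, and in both classes the differences between ages lay between 0.22 and 0.87 points with intervals that include 0. The Ccr7 split is given before thinning, where 13.5% of all young and 12.1% of all aged meningeal cells with neither were positive. Without a Ccr7 UMI, 27.6% (21.6 to 34.3) of 203 young and 12.5% (10.1 to 15.2) of 665 aged cells were positive before thinning, at median depths of 2879 and 2030 UMIs. In these cells Klrb1c and Klrc1 were lower by the rule in the aged library, with log2 ratios of -2.33 (-2.83 to -1.79) and -1.25 (-1.82 to -0.65). Klrk1, Klrd1 and Klrg1, the other members with enough UMIs, were at -0.49, -0.99 and -0.73, short of the rule. What share of all genes passed it in this subset was not computed.

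In young CD8 T cells the usual positive cell held Klrd1 and no other member. Such cells were 79 of the 122 positive cells in the young meninges and 42 of 63 in the young choroid plexus, but 51 of 148 in the aged meninges and 65 of 252 in the aged choroid plexus. Cells with Klrd1 and at least 1 other member numbered 30 and 12 in the young and 53 and 105 in the aged libraries. Of these Klrd1-only cells, 73.4% and 52.4% held a Ccr7 UMI in the young libraries and 15.7% and 16.9% in the aged ones. Among all CD8 cells these shares were 64.6% and 47.5% in the young and 8.90% and 9.51% in the aged libraries. At equal depth, Klrd1-only cells were 18.5% (13.9 to 23.8) and 11.5% (6.94 to 17.5) of young and 13.5% (9.69 to 18.1) and 10.5% (7.88 to 13.7) of aged CD8 cells, with the meninges given first, so the intervals overlap. Cells with Klrd1 and at least 1 other member were 1.57% (0.43 to 3.98) and 1.91% (0.40 to 5.48) of young and 5.84% (3.37 to 9.31) and 7.73% (5.47 to 10.5) of aged CD8 cells at that depth. Klrk1-only cells were 2.76% and 0.637% of young and 6.93% and 4.72% of aged ones.

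**Figure D4:**
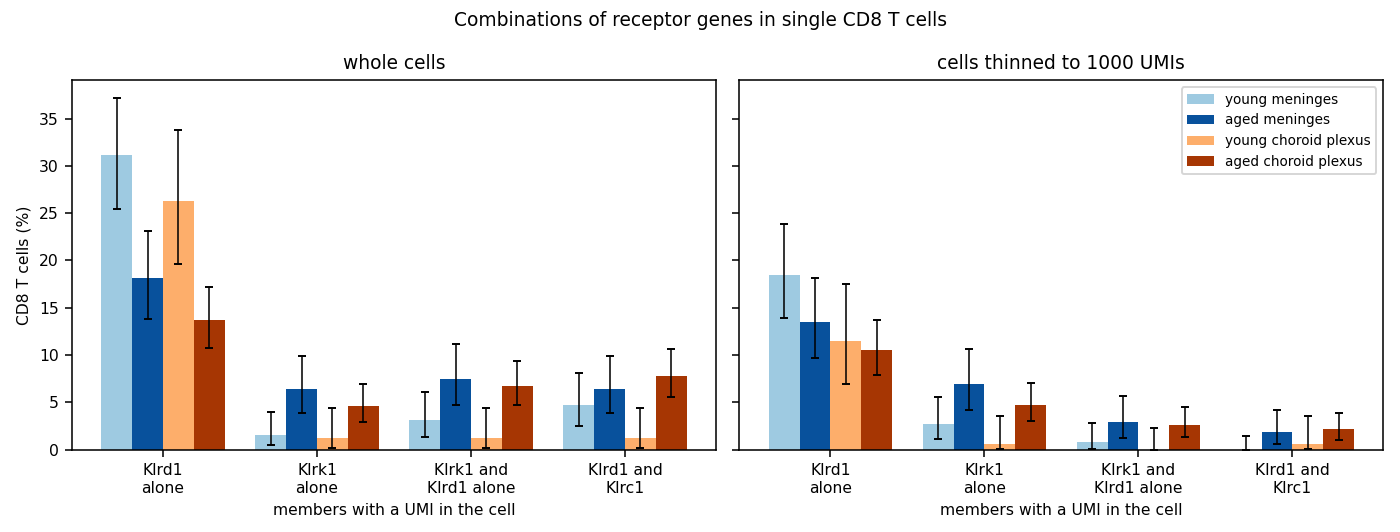
Share of CD8 T cells (vertical axis, %, from 0) that held the combinations of members named on the horizontal axis, in whole cells (left) and after thinning to 1000 UMIs (right), with Clopper-Pearson intervals at 95%. Of the 4 combinations drawn (Klrd1 alone, Klrk1 alone, Klrk1 and Klrd1 alone, Klrd1 and Klrc1), Klrd1 alone had the highest share in every library, and the shares of the 3 others were higher in the aged library of each tissue, with intervals that overlap in part.

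Klrd1, the partner chain of Klrc1, was read in more of the meningeal CD8 T cells with a Klrc1 UMI than of those without. In the meninges of both ages together, 30 of 41 Klrc1-positive cells held Klrd1, 73.2% (57.1 to 85.8), against 37.0% (32.8 to 41.5) of Klrc1-negative cells. Of the choroid plexus cells 39 of 87 did, 44.8% (34.2 to 55.9), against 33.9% (29.9 to 38.0). The intervals are apart in the meninges and overlap in the choroid plexus. By library, the counts were 12 of 17 in the young meninges, 18 of 24 in the aged meninges, 2 of 5 in the young choroid plexus and 37 of 82 in the aged choroid plexus. Klrc1-positive cells were deeper, with medians of 3444 to 6184 UMIs against 2734 to 3576 in Klrc1-negative cells. At 1000 UMIs per cell, 5 of 13 meningeal Klrc1-positive cells held Klrd1, 38.5% (13.9 to 68.4), against 19.2% (15.9 to 22.9), and 11 of 36 in the choroid plexus did, 30.6% (16.4 to 48.1), against 16.2% (13.3 to 19.4). At that depth the shares were still higher in the Klrc1-positive cells of both tissues, and the intervals overlap. No interval was computed for the differences, so the overlap does not show that they were absent. A Klrc1-positive cell without a Klrd1 UMI is not shown to lack the RNA, since thinning alone took the share of CD8 cells with a Klrd1 UMI from 42.9% to 20.1% in the young meninges.

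**Figure D5:**
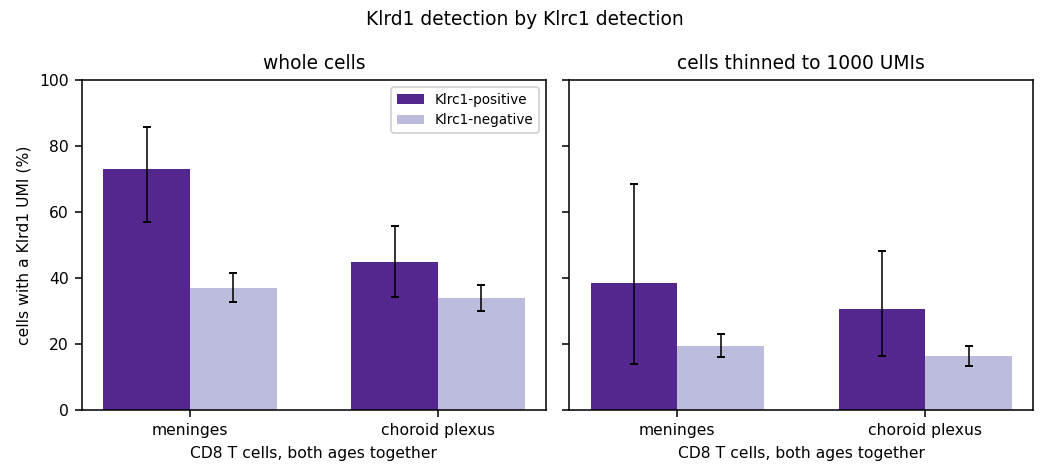
Share of CD8 T cells with a Klrd1 UMI (vertical axis, %, from 0) among Klrc1-positive and Klrc1-negative cells of each tissue, both ages together, in whole cells (left) and after thinning to 1000 UMIs (right), with Clopper-Pearson intervals at 95%. The gap between the meningeal bars, 73.2% against 37.0%, is wider than that of the choroid plexus, 44.8% against 33.9%, and after thinning the intervals overlap in both tissues.

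Other pairs were also found together. Over the 4 libraries, 134 of 218 Klrk1-positive CD8 cells held Klrd1, 61.5%, against 31.9% of Klrk1-negative cells, and 67 held Klrc1, 30.7%, against 6.42%. At equal depth the shares with Klrd1 were 36.1% (26.6 to 46.5) and 16.6% (14.4 to 18.99), and those with Klrc1 9.28% (4.33 to 16.9) and 3.79% (2.73 to 5.13), whose intervals overlap. In the young meninges alone, 2 of 10 Klrk1-positive cells held Klrd1 at that depth, 20%, against 20.1%. Of 128 Klrc1-positive cells 12 also held Klrc2, 9.38%, against 0.192% of Klrc1-negative cells. The coding sequences of this pair share the identical run of 100 bases described above. No 50-base window of the first 300 bases of Klrc1 occurred in another Klr gene. The part of shared sequence in these counts was not tested. Of 19 Klrb1c-positive CD8 cells, 13 held Klre1. These counts pool libraries in which the genes differ in level.

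A few effector genes differed between aged CD8 cells with and without a UMI of Klrk1, Klrg1 or Klrc1. In the aged meninges, Klrk1-positive CD8 cells (70) held Gzma, which encodes granzyme A, at 700 CPM against 61.5 CPM in the 211 negative cells, a log2 ratio of 3.31 (2.86 to 3.77). In the aged choroid plexus the values were 146 and 35.4 CPM, a log2 ratio of 1.78 (1.30 to 2.25). The Gzma UMIs came from few cells, 13 and 9 of the positive ones, and 1 cell held 52 in the meninges. Gzmb, granzyme B, was higher in Klrg1-positive cells of both aged tissues, at 424 against 126 CPM in the meninges and 379 against 119 CPM in the choroid plexus, on 21 and 24 positive cells. Klrc1-positive cells held less Ccl4, a chemokine of activated T cells, with 334 against 1115 CPM in the aged meninges and 42.5 against 167 CPM in the aged choroid plexus. Their log2 ratios were -1.71 (-2.24 to -1.22) and -1.75 (-2.44 to -1.10). Gzma, Gzmb and Ccl4 are from the list of 26 state genes, and each is given for a single receptor. The other pairings and the share of all genes past the rule are not given. Cells were split here by single UMIs, so the negative group holds cells whose receptor RNA was missed. In the aged meninges, median UMIs of positive and negative cells were 2922 and 2756 for Klrk1, 3707 and 2786 for Klrg1, and 3665 and 2734 for Klrc1.

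Gzmk, granzyme K, split the Klrd1 signal of 1 library. In the young choroid plexus the 26 Gzmk-positive CD8 cells held 1 Klrd1 UMI, 8.22 CPM (0.21 to 45.8), while the 134 Gzmk-negative ones held 97, 189 CPM (153 to 231). Gzmk-positive cells of the young meninges held Klrd1 at 142 CPM (92.1 to 210), those of the aged meninges at 226 CPM (188 to 270) and those of the aged choroid plexus at 193 CPM (165 to 223). In the meninges Klrk1 differed by this split in the young library and not detectably in the aged one. Gzmk-positive cells held it at 182 CPM (125 to 257) in the young and 145 CPM (115 to 181) in the aged library, and Gzmk-negative cells at 19.3 CPM (11.2 to 30.9) and 136 CPM (101 to 179). The log2 ratio of aged over young was 2.32 (1.70 to 2.91) in meningeal Gzmk-negative cells, past the rule, and -0.31 (-0.88 to 0.29) in Gzmk-positive ones. For the choroid plexus it was 1.25 (0.59 to 1.90), also past the rule, and 0.90 (-0.02 to 1.91). Klrc1 was lower by the rule in aged Gzmk-positive cells of the meninges, at -1.05 (-1.83 to -0.24), and higher in those of the choroid plexus, at 2.28 (0.64 to 3.17) on 1 young UMI. The young Gzmk-positive cells of the meninges were 32 and held 19 Klrc1 UMIs. For none of these pools was the share of all genes past the rule computed. The differences between the ratios of aged over young were not tested. The subset was picked from the list of state genes after its values were seen.

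The adaptors, ligands and relatives of the members were read from lists, chosen with earlier results of these data known. Of all genes with enough UMIs in CD8 cells of the meninges, 3.2% were higher and 1.83% lower with age by the rule. For the choroid plexus these shares were 2.46% and 0.872%. Of 13 partners and signalling genes, 11 had enough UMIs in CD8 cells of the meninges and 12 in those of the choroid plexus. Grb2 was higher and Fcer1g lower by the rule in aged CD8 cells of the meninges. Tyrobp and Fcer1g were lower in those of the choroid plexus. The 55 Fcer1g UMIs of the young choroid plexus were in 6 cells. Hcst, the adaptor of Klrk1, stood at 667 and 1198 CPM in young and aged meninges and at 823 and 1163 CPM in young and aged choroid plexus, log2 ratios of 0.83 and 0.49 that were short of the rule. Of 10 ligand genes, 3 had enough UMIs in CD8 cells of the meninges and 4 in those of the choroid plexus. Cdh1, the E-cadherin that Klrg1 binds, was higher in aged CD8 cells of the choroid plexus, at 14.2 CPM in the young and 41.5 CPM in the aged library. H2-T23 was at 204 to 274 CPM in CD8 cells, and H60b, H60c, Raet1d, Raet1e and Cdh2 had no UMI there. Of 9 other receptors of killer cells, 3 to 7 had enough UMIs, depending on class and tissue. Tigit, an inhibitory receptor, was higher by the rule with age in all 3 classes of both tissues, where 2.46% to 7.27% of genes were. The 17 other Klr genes held 23 to 41 UMIs together in the CD8 cells of a library, and none had enough UMIs in any class for a comparison of ages. Of 26 state genes, 23 had enough UMIs in CD8 cells of the meninges, where 15 were higher and 4 lower in the aged library. In those of the choroid plexus 22 had enough UMIs, and 8 were higher and 3 lower. Ccr7 was lower by the rule in both, at 426 and 46.4 CPM in young and aged meninges and at 243 and 44.9 CPM in young and aged choroid plexus, and Gzmk stood at 101 and 507 CPM in young and aged meninges and at 77.2 and 335 CPM in young and aged choroid plexus.

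Over the 12 pools of 3 classes in 4 libraries, the genes with a level most like that of Klrd1 were Cd7 (Pearson r of 0.96), Cd8a, Cd8b1, Ostf1 and Cd160, of 5830 compared. Cd8a and Cd8b1 define the CD8 class. For Klrk1 they were Ctsw (0.94), Armc7, Zyx, Sema4a and Ifitm10, and for Klrg1 Pbxip1 (0.95), Gpank1, Rtraf, Snx17 and Zap70. The pools share libraries, so these values describe likeness only.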

How the data were processed

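Mouse T cells were read with a 10x 5 prime kit, 1 library per tissue and age, and the deposited values are whole-number UMI counts per gene and cell. The authors made these counts with Cell Ranger on mm10. The processing notes give version 5.1.0 and the matrix headers 3.1.0, and which is right was not settled. The 9 members and all gene lists were chosen with earlier results of these data known. Cells with 200 to 7000 genes and at most 5% mitochondrial UMIs were kept. Doublets were sought with Scrublet (scanpy 1.11.5), which marked 16, 22, 0 and 5 of 1035, 631, 1436 and 1106 cells (young libraries first, meninges before choroid plexus), so it marked almost none in the aged libraries and doublets may remain there. Cells with both Cd4 and Cd8 UMIs were left out of the classes. The libraries held 2295950 to 4262917 UMIs. UMIs were summed per library and class and divided by the class total (CPM). Poisson and Clopper-Pearson intervals at 95% cover counting error only, and no test or p-value was computed, since each condition is 1 library. Ratios are log2 of CPM + 10, with intervals from those of both levels, and differences of shares have Newcombe intervals. A gene was called by size, with at least 20 UMIs in the higher pool and a log2 ratio of at least 1. Depth was equalised by drawing 1000 UMIs from each cell, leaving out shallower cells. All 9 members were named throughout, and 5 genes per member by Pearson r for likeness. Alternatives changed the pseudocount, UMI minimum, gates, doublets, totals and depth. The ratio script was tested on simulated data. Figures were drawn with matplotlib 3.10.9.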

Additional observations from a re-analysis of the deposited data

Results flagged for a closer look

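Member UMIs were also found in cells outside the 3 classes compared. Cells with both Cd4 and Cd8 UMIs held 4 summed UMIs of the 9 genes in the young meninges, 13 in the young choroid plexus, 9 in the aged meninges and 50 in the aged choroid plexus. Such cells numbered 18, 16, 30 and 33, in that order. Of the cells without a Cd3 UMI, those of the aged meninges held 5 member UMIs, and those of the other 3 libraries none. There were no control cells for these counts.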

How the results depend on the processing

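The log2 ratios kept their sign under every alternative run where they were past the rule. Members past it numbered 2 in CD8 cells of the meninges, 2 in those of the choroid plexus and 1 in meningeal cells with neither. With a pseudocount of 50 CPM in place of 10 these counts were 0, 0 and 0, because a larger pseudocount shrinks every ratio (Klrk1 0.99 and 0.88, Klrg1 0.52, Klrc1 0.86, Klrb1c -0.57). With a minimum of 50 UMIs the meningeal CD8 count was 1, without Klrg1, and after thinning it was 1 and that of neither 0. The calls lost by thinning had log2 ratios no smaller than before (Klrg1 1.49, Klrb1c -1.44) and were lost to the UMI minimum. Thinning gave the shares of Klrc1-positive CD8 cells with Klrd1 as 38.5% for the meninges and 30.6% for the choroid plexus. Calls gained were Klra7 lower in meningeal CD8 cells (-1.38 with a pseudocount of 1, -1.16 with receptor, mitochondrial and ribosomal genes out of the total), Klrg1 higher in choroid plexus CD8 cells (1.17 with a pseudocount of 1, 1.01 in Cd8b1-positive cells) and Klre1 there (1.05 without cells holding natural killer markers). Scrublet on every deposited cell and leaving out each member's top cell were added after seeing the data. No paired analysis was possible because each condition is 1 library and no result comes from a test, and for the same reason no replicate could be left out. Low counts limit Klrc2, Klra8 and, in CD4 cells, nearly all members.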
